A study of Homo sapiens with 18 samples.

Results

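NRF2 pathway antioxidant genes were followed in OCI-Ly1 and TMD8, established human cell lines from diffuse large B-cell lymphoma, under JIB-04, a small-molecule inhibitor of Jumonji-domain histone demethylases. The 10 genes were taken by symbol: NFE2L2, KEAP1, GCLC, GCLM, NQO1, HMOX1, TXN, TXNRD1, SRXN1 and PRDX1. All 10 were among the 23686 gene symbols of the deposited tables, and all 10 passed the low-count filter in every comparison. The samples were bulk RNA-seq libraries of ribosome-depleted total RNA, 18 in all. In each of the 2 lines, 3 libraries came from cells given the vehicle, 0.01% DMSO, 3 from cells given 150 nM JIB-04 and 3 from cells given 500 nM JIB-04. OCI-Ly1 was kept in IMDM and TMD8 in RPMI 1640, both with serum, so the effects of line and medium cannot be told apart. The labels give no genetic change beyond the lines themselves and no length of treatment. They call the 3 libraries of a group technical replicates and do not say whether the cultures were separate, so the p-values measure only the spread between such libraries.

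NRF2, the protein of NFE2L2, is a transcription factor that is held low in unstressed cells by KEAP1, the adaptor through which the CUL3 ubiquitin ligase marks it for destruction. Oxidants and electrophiles modify cysteines of KEAP1, NRF2 escapes, pairs with a small MAF protein and binds antioxidant response elements near genes of glutathione synthesis, thioredoxin recycling, quinone reduction and haem breakdown. Because NRF2 is controlled largely through the stability of the protein, the RNA level of NFE2L2 does not measure its activity, and only RNA was measured here. The 10 genes span these roles: the factor and its inhibitor, the ligase of glutathione synthesis, the quinone and haem enzymes, and the thioredoxin and peroxiredoxin system.

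Antioxidant response elements carry the core TGACNNNGC, where N is any base. RefSeq promoter windows of the GRCh38.p14 build, running from 250 bases before to 50 bases after a start site, were searched for this core on both strands. Windows were found for 8 of the 10 genes, 11 windows in all. The core occurred in 4 of these windows, belonging to 3 genes, GCLM, TXNRD1 and KEAP1, while 4687 of all 35116 windows (13.3%) held it. The windows of NFE2L2, GCLC, TXN, NQO1 and SRXN1 did not hold these letters, and no window was used for PRDX1 and HMOX1. The matches are printed because they show which members carry the recognised core next to a start site, and how its variable bases differ. Each line gives 29 bases, 5′ to 3′ on the strand that reads TGAC first, with the core in capitals.
GCLM, chr1:93909446-93909474, plus strand: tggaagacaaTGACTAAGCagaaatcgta
TXNRD1, chr12:104215670-104215698, plus strand: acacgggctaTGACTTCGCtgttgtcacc
TXNRD1, chr12:104215761-104215789, minus strand: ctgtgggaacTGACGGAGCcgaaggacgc
TXNRD1, chr12:104286920-104286948, minus strand: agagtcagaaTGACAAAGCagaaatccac
KEAP1, chr19:10502807-10502835, minus strand: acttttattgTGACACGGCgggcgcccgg
KEAP1, chr19:10502784-10502812, plus strand: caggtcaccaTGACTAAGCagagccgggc
The GCLM core lay 25 bases from the start site, on the strand opposite to the gene. The first TXNRD1 core lay 90 bases from its start site, on the strand of the gene, and the next one spanned that start. No GENCODE v29 feature contains any of these 3 cores whole, and features overlapping only part of a core were not looked for. The last TXNRD1 core and both KEAP1 cores lie in exons annotated as untranslated regions of those genes in GENCODE v29, at 93, 45 and 22 bases from their start sites. GCLM and the last KEAP1 sequence share the same 9 letters, TGACTAAGC. A match describes letters in a window and does not show that NRF2 binds there. Sequence outside the windows was not searched, so the lack of a match does not show that a gene lacks the element.

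OCI-Ly1 libraries held 17579679 to 32651041 rounded estimated counts, and TMD8 libraries 9550016 to 20509447. All 7 B-cell markers examined were above 1 TPM in both lines, while 0 of 4 myeloid markers were. Epithelial markers were above 1 TPM for 4 of 4 in OCI-Ly1, with sums of 15.6 to 19.8 TPM, and for 3 of 4 in TMD8, with sums of 14.4 to 18.8 TPM. Germinal centre markers in TMD8 (2 of 4 above 1 TPM) summed to 32.4 to 40.4 TPM with DMSO and 16.5 to 18.3 TPM at 500 nM, and in OCI-Ly1 (3 of 4) to 164 to 202 TPM. Fibroblast markers in TMD8 (1 of 3) summed to 0.492 to 0.599 TPM with DMSO and 2.73 to 2.96 TPM at 500 nM, and in OCI-Ly1 (0 of 3) to at most 0.0561 TPM. T-cell markers (2 of 4 in OCI-Ly1 and 1 of 4 in TMD8 above 1 TPM) summed to from 26.7 to 28.9 with DMSO and from 11.9 to 13.8 at 500 nM in OCI-Ly1, and to at most 1.82 TPM in TMD8, where CD3E was at 0. Markers of activated B cells and plasma cells summed to 96.8 to 100.2 TPM with DMSO and 188 to 197 TPM at 500 nM in OCI-Ly1, and to 423 to 543 and 259 to 300 TPM in TMD8. The 7 B-cell markers in TMD8 also summed lower at 500 nM, to 1297 to 1522 TPM against 1679 to 2075 TPM with DMSO. In OCI-Ly1 they summed to 1106 to 1223 TPM at 500 nM and 1165 to 1225 TPM with DMSO. These sums share a fixed TPM total, described below for TMD8, and its part in the shifts was not tested. The part of these shifts in the results below was not tested either. TPM, a share of transcripts scaled for their length, is used for comparing genes within a line. Normalised read counts, in CPM (library-scaled counts, TMM within a line), are used for comparing libraries. In TMD8, the 10 most abundant genes of a library held 54.3% to 62.1% of all TPM with DMSO and 71.2% to 74.3% at 500 nM, but at most 10.1% of counts, which leaves less of the fixed TPM total for the other genes as dose rises. The first TMD8 DMSO library stood apart from the other 2 of its group, with a chi-square per degree of freedom of 10.3 and 10.9 against them and 1.90 between them, and with 54.3% of TPM in the top 10 genes against 61.0% and 62.1%. Without it, the members called in TMD8 were 3 higher and 5 lower at 500 nM, as with it, and 3 and 5 at 150 nM, where 3 and 4 were called with it. Line differences without it were called for 2 higher and 3 lower at 150 nM and for 5 and 2 at 500 nM, against 3 and 2, and 5 and 1, with it. Fold changes below are those of the TMM-scaled counts unless another scale is named.

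With DMSO, PRDX1, TXN and TXNRD1 were the most abundant of the 10 genes in both lines, and glutathione-ligase subunit GCLM and quinone reductase NQO1 the least. In OCI-Ly1, PRDX1 stood at 1332 ± 24.6 TPM (mean ± SD, n = 3, as in all such values), TXN at 249 ± 6.31 and TXNRD1 at 88.7 ± 1.49 TPM. KEAP1 followed at 45.1 ± 3.45 TPM, then SRXN1 at 35.5 ± 1.72, NFE2L2 at 33.9 ± 3.01, GCLC at 26.6 ± 2.32 and HMOX1 at 18.3 ± 1.01 TPM. NQO1, at 10.5 ± 0.588 TPM, and GCLM, at 10.03 ± 0.738 TPM, were lowest. Libraries of neighbours in this order did not overlap, except for SRXN1 with NFE2L2 and NQO1 with GCLM.

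TMD8 had the same leaders, PRDX1 at 284 ± 35.3 TPM, TXN at 88.4 ± 15.2 and TXNRD1 at 35.8 ± 4.69 TPM. HMOX1 came next, at 27.7 ± 3.78 TPM, above KEAP1 at 21.2 ± 0.254 TPM. NFE2L2 at 7.78 ± 1.60 TPM and GCLC at 7.03 ± 0.883 TPM overlapped. SRXN1 was at 5.52 ± 0.339, GCLM at 3.50 ± 0.276 and NQO1 at 3.21 ± 0.0778 TPM. HMOX1 held rank 4 of the 10 genes in TMD8 and rank 8 in OCI-Ly1.

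The lines were compared with DMSO in a fit of all 18 libraries. OCI-Ly1 had more RNA of 8 of the 10 genes and TMD8 more of 1, HMOX1, where 76.7% of all 16604 genes tested were called in either direction, 37.8% higher and 39% lower (edgeR, adjusted p under 0.05), and where libraries did not overlap for the same 9 genes and for 76.4% of all genes. Of the 8 genes higher in OCI-Ly1, those with the largest differences were SRXN1, the sulfiredoxin that repairs overoxidised peroxiredoxins, with a log2 difference of 1.72 (OCI-Ly1 minus TMD8, SE 0.08, adjusted p 2.3e-17 by edgeR), and PRDX1, the peroxiredoxin that removes hydrogen peroxide, with 1.27 (SE 0.06, adjusted p 2.4e-17 by edgeR). NFE2L2 itself differed by 1.16 (SE 0.08, adjusted p 1.6e-13 by edgeR) and GCLC by 0.96 (SE 0.06, adjusted p 9.6e-14 by edgeR). NQO1, GCLM, TXN and TXNRD1 differed by 0.72, 0.55, 0.54 and 0.35. HMOX1, haem oxygenase, went the other way, by -1.56 (SE 0.06, adjusted p 1.7e-18 by edgeR). KEAP1 was not called, at 0.11 (95% interval -0.03 to 0.25, edgeR adjusted p 0.16). The median difference of the 10 genes was 0.63, against -0.02 for all genes tested. On log2(TPM + 1) the median of all genes became 0.80 and that of the 10 genes 1.47, with 9 genes called higher in OCI-Ly1 and HMOX1 still lower.

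**Figure D1:**
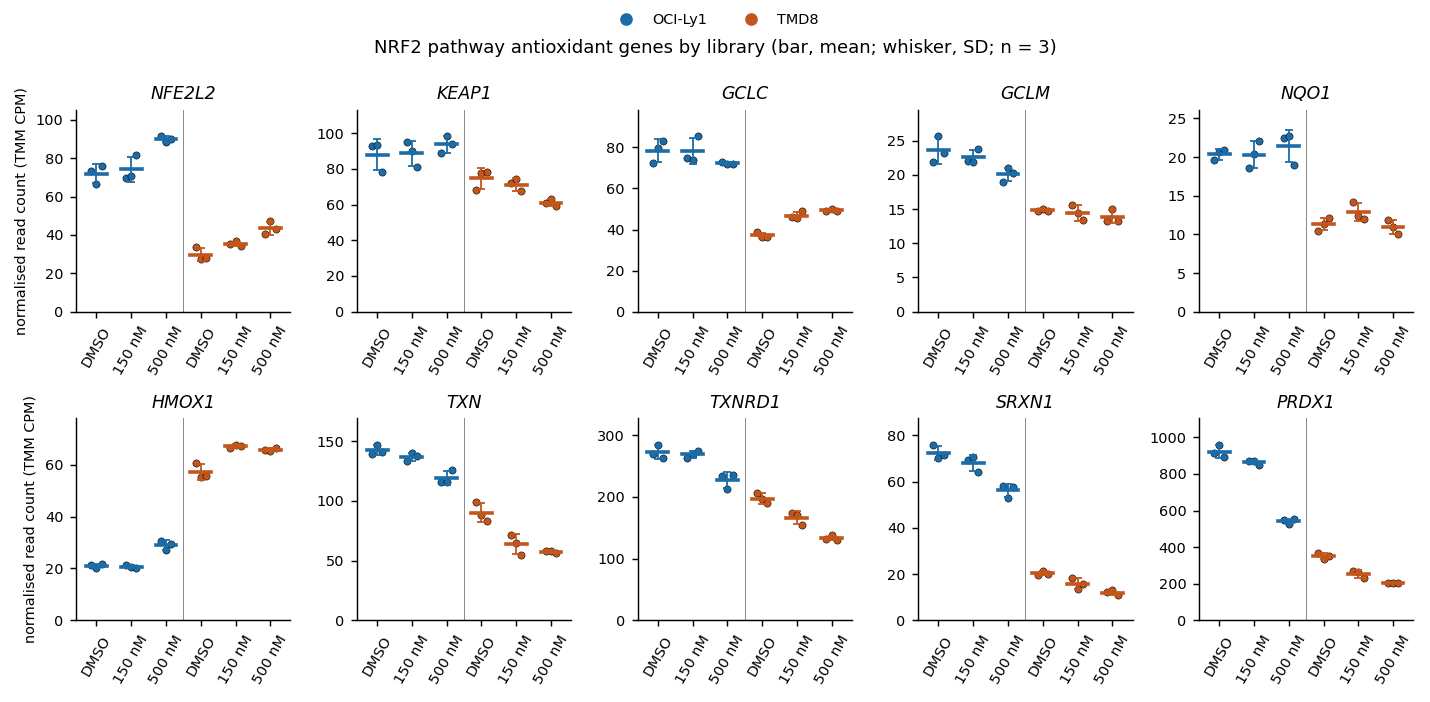
Normalised read counts (CPM with TMM scaling, linear axis from 0, own scale per gene) of the 10 genes in each library of OCI-Ly1 (blue) and TMD8 (orange) with DMSO, 150 nM and 500 nM JIB-04; points are libraries, bars the mean and whiskers the SD of 3. NFE2L2 was above its DMSO libraries at 500 nM in both lines, and TXN, TXNRD1, SRXN1 and PRDX1 were below theirs.

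At 150 nM, OCI-Ly1 showed no called change in the 10 genes, while TMD8 showed 7. In OCI-Ly1, 0 of the 10 were called by edgeR (0.889% of 15638 genes were), and 0 were called by DESeq2 or limma. Their log2 fold changes ran from -0.09 to 0.04, and 1 gene, PRDX1, had an unadjusted p under 0.05 (0.038, edgeR adjusted p 0.45). In TMD8, 3 of the 10 were higher and 4 lower (edgeR, adjusted p under 0.05), where 44.2% of 15363 genes were called in either direction, 19.2% higher and 25% lower. DMSO and 150 nM libraries did not overlap for those 7 genes, as for 51.4% of all genes. The median of the 10 genes was -0.06 in TMD8, against 0.01 for all genes tested.

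At 500 nM genes of the set were called in each direction in both lines. OCI-Ly1 had 2 of the 10 genes called higher and 5 called lower by edgeR, where 53.6% of genes were called, 27.7% higher and 25.9% lower. In TMD8, 3 were higher and 5 lower, where 60.7% of genes were called, 29.9% higher and 30.7% lower. The libraries of the 2 groups did not overlap for 7 of the 10 genes in OCI-Ly1 (60.7% of all genes) and for 8 in TMD8 (66.4%). The shares without overlap are not far from those of all genes. Lower calls, 5 of 10 in each line, stood against 25.9% and 30.7% of all genes, a gap that was not tested. The median log2 fold change of the 10 was -0.17 in OCI-Ly1 and -0.19 in TMD8, against -0.0033 and 0.04 for all genes tested. The genes higher in both lines were NFE2L2 and HMOX1. Those lower in both were TXN, TXNRD1, SRXN1 and PRDX1, the thioredoxin and peroxiredoxin genes of the set. The libraries are bulk, so fewer cells with a transcript and less RNA per cell cannot be told apart.

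NFE2L2, the gene of NRF2, was higher at 500 nM in both lines, and at 150 nM in TMD8 alone. In OCI-Ly1 it stood at 73.2, 66.5 and 76.1 CPM with DMSO, 69.9, 70.8 and 81.8 CPM at 150 nM, and 91.6, 88.3 and 90.0 CPM at 500 nM. The 3 libraries at 500 nM lay above all others, and those at 150 nM overlapped DMSO. The log2 fold change at 500 nM was 0.32 (SE 0.07, adjusted p 6.7e-04 by edgeR). TMD8 libraries held 33.5, 27.4 and 28.1 CPM with DMSO, 35.1, 36.6 and 34.4 CPM at 150 nM, and 40.3, 47.2 and 42.9 CPM at 500 nM. The 3 TMD8 groups did not overlap. The log2 fold change in TMD8 was 0.26 at 150 nM (SE 0.08, adjusted p 0.015 by edgeR) and 0.55 at 500 nM (SE 0.08, adjusted p 1.0e-05 by edgeR). The call at 150 nM was lost without the second DMSO library (edgeR adjusted p 0.072), the third DMSO library (0.060) or the second 150 nM library (0.060). In TMD8 the call at 500 nM held under 14 of 17 alternatives, with log2 fold changes from 0.16 to 0.68.

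KEAP1, the adaptor that holds NRF2 low, fell in TMD8 at the higher dose and was not called in OCI-Ly1. In TMD8 it stood at 68.1, 77.99 and 78.1 CPM with DMSO, 71.8, 74.4 and 67.5 CPM at 150 nM, and 61.1, 62.9 and 59.2 CPM at 500 nM. Each 500 nM library lay below every other TMD8 library, and the log2 fold change against DMSO was -0.29 (SE 0.06, adjusted p 4.7e-04 by edgeR). In OCI-Ly1 the DMSO libraries held 92.8, 93.4 and 78.04 CPM and the 500 nM libraries 88.9, 98.5 and 94.0 CPM. These overlapped, with a log2 fold change of 0.09 (95% interval -0.05 to 0.24, edgeR adjusted p 0.31), though on log2(TPM + 1) it was called higher, at 0.23 (limma adjusted p 0.040).

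The subunits of glutamate-cysteine ligase, which makes the precursor of glutathione, did not move together. GCLC, the catalytic subunit, rose in TMD8 from 38.7, 36.4 and 36.2 CPM with DMSO to 45.9, 45.7 and 48.9 CPM at 150 nM and 49.2, 50.1 and 48.8 CPM at 500 nM. Both treated groups lay above DMSO and overlapped each other. The log2 fold changes were 0.34 at 150 nM (SE 0.06, adjusted p 1.2e-04 by edgeR) and 0.41 at 500 nM (SE 0.06, adjusted p 7.0e-06 by edgeR). In OCI-Ly1 GCLC stood at 72.5, 79.6 and 83.2 CPM with DMSO and 72.9, 71.7 and 71.99 CPM at 500 nM. These overlapped, with a log2 fold change of -0.12 (95% interval -0.25 to 0.01, edgeR adjusted p 0.14), which passed the threshold with the first DMSO library left out (-0.18, edgeR adjusted p 0.042) and was 0.02 on log2(TPM + 1).

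GCLM, the modifier subunit, had 1 call among the dose comparisons within a line on TMM-scaled counts, at 500 nM against DMSO in OCI-Ly1. It stood there at 21.9, 25.7 and 23.2 CPM with DMSO, 22.0, 21.9 and 23.8 CPM at 150 nM, and 19.0, 21.0 and 20.3 CPM at 500 nM. The 500 nM libraries lay below the others, and the log2 fold change was -0.23 (SE 0.08, adjusted p 0.024 by edgeR). That call was lost without the second DMSO library (edgeR adjusted p 0.11), without the first 500 nM library (0.095), with library size alone (0.14) and on log2(TPM + 1) (limma adjusted p 0.39). TMD8 libraries held 14.7, 14.97 and 14.8 CPM with DMSO and 13.3, 14.96 and 13.3 CPM at 500 nM, a log2 fold change of -0.09 (95% interval -0.27 to 0.08, edgeR adjusted p 0.38), or 0.03 with upper quartile scaling and -0.35 on log2(TPM + 1) (limma adjusted p 0.0047).

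NQO1, the quinone reductase often used as a readout of NRF2 activity, was not called at any dose in either line. In OCI-Ly1 it stood at 19.6, 20.6 and 20.9 CPM with DMSO, 18.5, 20.4 and 22.0 CPM at 150 nM, and 22.5, 22.7 and 19.0 CPM at 500 nM. The TMD8 values were 10.5, 11.4 and 12.1 CPM with DMSO, 14.2, 12.4 and 12.0 CPM at 150 nM, and 11.9, 10.9 and 10.03 CPM at 500 nM. Each dose overlapped DMSO in both lines, while in TMD8 the 500 nM libraries lay below those at 150 nM without a call between the doses (edgeR adjusted p 0.14). The log2 fold changes at 500 nM were 0.07 in OCI-Ly1 (95% interval -0.10 to 0.25, edgeR adjusted p 0.52) and -0.04 in TMD8 (95% interval -0.25 to 0.16, edgeR adjusted p 0.74). On log2(TPM + 1) the TMD8 value was -0.31 and passed the threshold (limma adjusted p 0.0055), on a scale whose median over all genes was -0.34, and it turned to 0.03 once that scale was centred on the median of each library.

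HMOX1, haem oxygenase, which breaks haem down to biliverdin, iron and carbon monoxide, rose at 500 nM in both lines and at 150 nM in TMD8. In OCI-Ly1 it stood at 21.5, 20.2 and 21.5 CPM with DMSO, 21.2, 20.8 and 20.004 CPM at 150 nM, and 30.7, 27.2 and 29.2 CPM at 500 nM. Only the 500 nM libraries stood apart, with a log2 fold change of 0.46 (SE 0.07, adjusted p 5.4e-05 by edgeR). TMD8 started higher, at 60.5, 55.2 and 55.8 CPM with DMSO, 66.3, 67.7 and 67.3 CPM at 150 nM, and 65.8, 65.2 and 66.5 CPM at 500 nM. Both TMD8 doses lay above DMSO. The TMD8 log2 fold change was 0.23 at 150 nM (SE 0.05, adjusted p 0.0012 by edgeR) and 0.20 at 500 nM (SE 0.05, adjusted p 0.0025 by edgeR), but -0.16 at 500 nM on log2(TPM + 1) (limma adjusted p 0.18), which is 0.17 above the median of all genes on that scale. Without the gene filter that median was -0.08 and HMOX1 lay below it. Relative to the median of all genes, HMOX1 in TMD8 at 500 nM ran from -0.09 to 0.23 over 12 settings.

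The thioredoxin pair fell in both lines. TXN, thioredoxin, passes electrons to peroxiredoxins and other oxidised proteins. In TMD8 it stood at 98.9, 87.8 and 83.3 CPM with DMSO, 71.8, 65.0 and 54.9 CPM at 150 nM, and 58.3, 58.0 and 56.6 CPM at 500 nM. Both doses lay below DMSO, with log2 fold changes of -0.50 (SE 0.08, adjusted p 6.0e-05 by edgeR) and -0.64 (SE 0.08, adjusted p 2.0e-06 by edgeR). In OCI-Ly1 TXN stood at 139, 147 and 141 CPM with DMSO, 133, 139.8 and 137 CPM at 150 nM, and 115, 116 and 126 CPM at 500 nM. The 500 nM libraries lay below the others, with a log2 fold change of -0.26 (SE 0.05, adjusted p 6.0e-04 by edgeR), or -0.12 and not past the threshold on log2(TPM + 1) (limma adjusted p 0.098).

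TXNRD1, thioredoxin reductase, recharges thioredoxin with electrons from NADPH. Its TMD8 values were 206, 196 and 189 CPM with DMSO, 174, 171 and 154 CPM at 150 nM, and 132, 138 and 130.2 CPM at 500 nM. The 3 TMD8 groups did not overlap and fell in order of dose, by -0.24 (SE 0.05, adjusted p 0.0010 by edgeR) and -0.56 (SE 0.05, adjusted p 5.9e-08 by edgeR) against DMSO. In OCI-Ly1 it stood at 269, 284 and 263 CPM with DMSO, 263, 269 and 274 CPM at 150 nM, and 234, 212 and 235 CPM at 500 nM. Only the 500 nM group stood below DMSO, with a log2 fold change of -0.26 (SE 0.05, adjusted p 4.2e-04 by edgeR), or -0.13 and not past the threshold on log2(TPM + 1) (limma adjusted p 0.059).

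At 500 nM the 2 peroxide enzymes had the lowest fold changes of the 10 in both lines. SRXN1, sulfiredoxin, stood in OCI-Ly1 at 75.9, 70.1 and 71.6 CPM with DMSO, 69.2, 70.8 and 64.2 CPM at 150 nM, and 58.2, 53.1 and 57.7 CPM at 500 nM. Its 500 nM libraries lay below the others, with a log2 fold change of -0.37 (SE 0.06, adjusted p 9.0e-05 by edgeR). Its TMD8 values were 19.5, 21.2 and 20.2 CPM with DMSO, 18.3, 13.5 and 15.7 CPM at 150 nM, and 12.1, 13.1 and 10.8 CPM at 500 nM. The 3 TMD8 groups were ordered by dose without overlap. The TMD8 log2 fold changes were -0.36 at 150 nM (SE 0.10, adjusted p 0.0057 by edgeR) and -0.75 at 500 nM (SE 0.11, adjusted p 7.2e-06 by edgeR).

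PRDX1, the most abundant of the 10 genes, had the lowest fold change in OCI-Ly1 at 500 nM, and in TMD8 it was within the SE of SRXN1. In OCI-Ly1 it stood at 914, 959.6 and 893 CPM with DMSO, 869, 871 and 851 CPM at 150 nM, and 551, 529 and 552 CPM at 500 nM. Its 500 nM libraries were far below the others, with a log2 fold change of -0.76 (SE 0.04, adjusted p 7.3e-11 by edgeR). In TMD8 it stood at 369, 335 and 351 CPM with DMSO, 271, 264 and 231 CPM at 150 nM, and 204, 206 and 204 CPM at 500 nM. The groups fell in order of dose without overlap, by -0.46 (SE 0.06, adjusted p 4.8e-06 by edgeR) and -0.78 (SE 0.06, adjusted p 2.6e-09 by edgeR) against DMSO. The falls of PRDX1 and SRXN1 at 500 nM passed the threshold in both lines under each of the 17 alternatives run per line, with PRDX1 between -0.82 and -0.63 in OCI-Ly1 and between -1.18 and -0.65 in TMD8. PRDX1 and TXN have pseudogene copies, and how reads shared with them were assigned is not given in the sources used here.

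**Figure D2:**
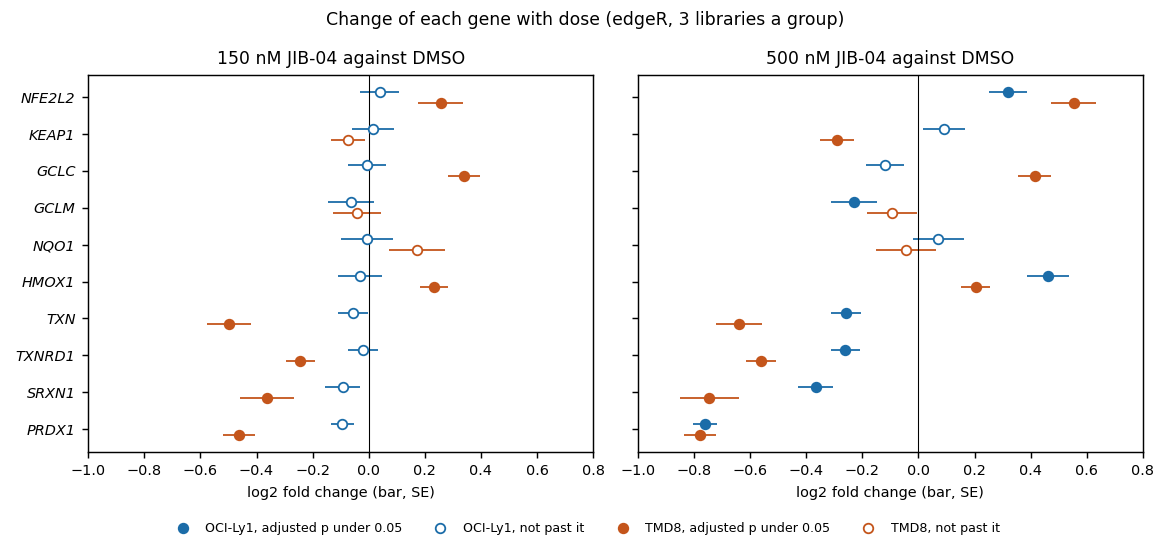
Log2 fold change against DMSO of each of the 10 genes at 150 nM (left) and 500 nM (right) in OCI-Ly1 (blue) and TMD8 (orange); bars are the SE and filled points passed an edgeR adjusted p of 0.05. At 150 nM all OCI-Ly1 points are open and 7 TMD8 points are filled; at 500 nM, 7 and 8 are filled.

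The step from 150 to 500 nM was tested as well. In OCI-Ly1, 2 of the 10 genes were higher and 4 lower at 500 nM than at 150 nM, where 46.2% of genes were called, 25.1% higher and 21.1% lower. HMOX1 rose by 0.49 and NFE2L2 by 0.28 on the log2 scale, and PRDX1 fell by 0.67, SRXN1 by 0.27, TXNRD1 by 0.24 and TXN by 0.20 (edgeR adjusted p from 7.1e-10 for PRDX1 to 0.0051 for TXN). In TMD8, 1 gene was higher and 4 lower, where 28.7% of genes were called, 13.7% higher and 15% lower. There NFE2L2 rose by 0.30, and SRXN1 fell by 0.38, TXNRD1 by 0.32, PRDX1 by 0.32 and KEAP1 by 0.22 (edgeR adjusted p from 2.8e-04 for TXNRD1 to 0.013 for SRXN1). GCLC, HMOX1 and TXN, called at 150 nM in TMD8, were not called between the doses (edgeR adjusted p 0.37, 0.74 and 0.23). In TMD8 the step was lost for KEAP1 without the second 150 nM library (edgeR adjusted p 0.070) or the third 500 nM library (0.060), for SRXN1 without the first 150 nM library (0.075) or the third 500 nM library (0.064), and for NFE2L2 without the second 500 nM library (0.071).

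Whether the lines differed in their change was tested directly, by subtracting the TMD8 change from the OCI-Ly1 change. At 150 nM, 3 of the 10 genes were called with a higher difference and 2 with a lower, where 23.3% of 16604 genes were called, 15% higher and 8.33% lower. TXN differed by 0.45 (SE 0.10, adjusted p 0.0023 by edgeR), PRDX1 by 0.38 (SE 0.08, adjusted p 0.0013 by edgeR) and TXNRD1 by 0.23 (SE 0.08, adjusted p 0.040 by edgeR), all 3 called lower in TMD8 and not called in OCI-Ly1. GCLC differed by -0.34 (SE 0.09, adjusted p 0.0066 by edgeR) and HMOX1 by -0.26 (SE 0.09, adjusted p 0.038 by edgeR), both called higher in TMD8. The HMOX1 difference was lost when any 1 of 9 of the 12 libraries compared was left out, and the TXNRD1 difference when any 1 of 7 was, with edgeR adjusted p up to 0.093 and 0.14.

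At 500 nM, 5 genes had a higher difference and 1 a lower, where 46.4% of genes were called, 28.2% higher and 18.1% lower. KEAP1, TXN and SRXN1 each differed by 0.41 (SE 0.10, 0.10 and 0.12, edgeR adjusted p 0.0020, 0.0021 and 0.0072), TXNRD1 by 0.33 (SE 0.08, adjusted p 0.0017 by edgeR) and HMOX1 by 0.29 (SE 0.09, adjusted p 0.0090 by edgeR). The fold changes in OCI-Ly1 were less negative for TXN, TXNRD1 and SRXN1 and more positive for HMOX1, and KEAP1 was called lower in TMD8 alone. GCLC differed by -0.50 (SE 0.09, adjusted p 5.1e-05 by edgeR), being called higher in TMD8 alone. PRDX1 did not pass, at 0.05 (95% interval -0.11 to 0.21, edgeR adjusted p 0.66), nor did NFE2L2, at -0.20 (95% interval -0.42 to 0.01, edgeR adjusted p 0.13), though NFE2L2 passed without the first TMD8 DMSO library (-0.30, edgeR adjusted p 0.025). NQO1 and GCLM differed by 0.15 and -0.11 (edgeR adjusted p 0.43 and 0.51).

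The number of calls between lines turned on how the lines were scaled to each other. With upper quartile scaling the median difference of all genes at 500 nM moved from 0.05 to -0.14, and 0 of the 10 genes were then called higher and 3 lower. On log2(TPM + 1) the median of all genes was 0.47 and 8 genes were called higher and 0 lower. Taken relative to the median of all genes under each of 10 settings, the differences of TXN ran from 0.34 to 0.68, those of KEAP1 from 0.34 to 0.66, and those of TXNRD1 from 0.26 to 0.59. GCLC lay from -0.57 to -0.21 on that footing, below the median of all genes in each setting. PRDX1 ran from -0.0041 to 0.35.

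**Figure D3:**
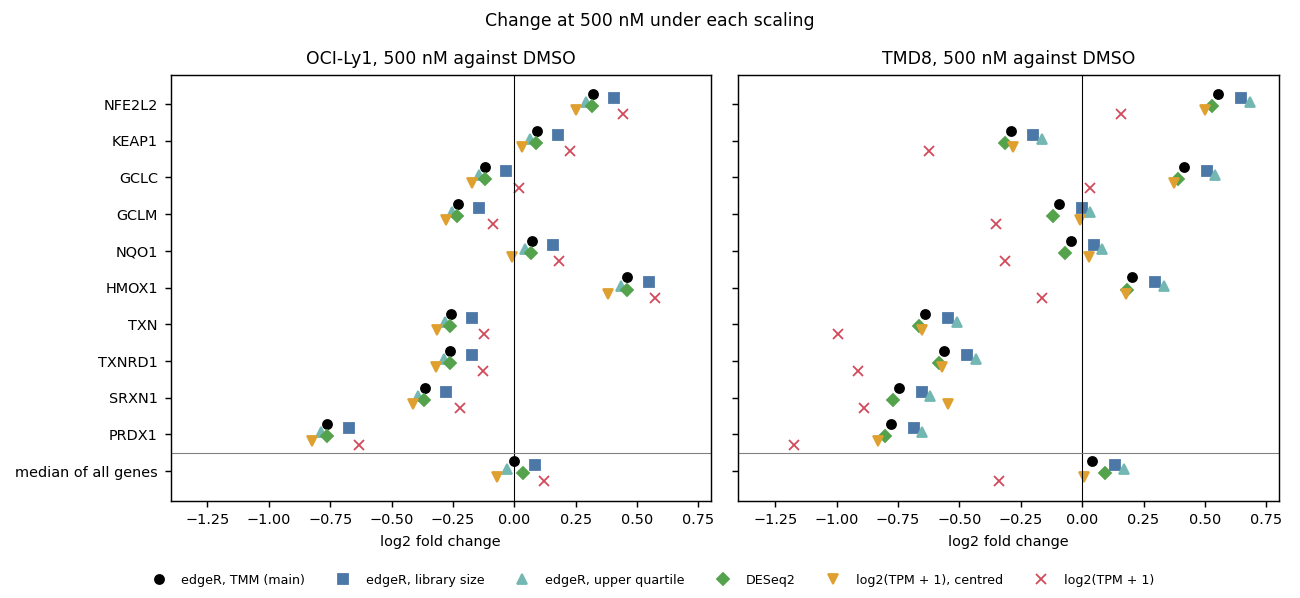
Log2 fold change at 500 nM against DMSO of the 10 genes and of the median over all genes, in OCI-Ly1 (left) and TMD8 (right), under 6 scalings marked by symbol. In TMD8 log2(TPM + 1) sets the median of all genes at -0.34 and moves all 10 genes down with it, so that HMOX1 turns from 0.20 to -0.16.

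Scaling also bore on the rises within TMD8. Of all genes called there at 500 nM, 49.3% were higher on TMM-scaled counts, 59.4% with library size alone, 63.3% with upper quartile scaling and 13.9% on log2(TPM + 1). In OCI-Ly1 these shares were 51.6%, 64.0%, 47.7% and 71.8%. At 500 nM against DMSO, the 3 higher and 5 lower calls on TMM-scaled counts became 0 and 7 on log2(TPM + 1), where the median of all genes was -0.34, and 3 and 5 again once that scale was centred. On the uncentred scale NFE2L2 and GCLC were at 0.16 and 0.03 (limma adjusted p 0.29 and 0.78), which lie 0.49 and 0.37 above that median, against 0.51 and 0.37 above it on TMM-scaled counts. Over 12 settings they lay 0.23 to 0.57 and 0.11 to 0.43 above the median. The smallest offsets came on log2(TPM + 1) without the gene filter, where the median was -0.08. At 150 nM in TMD8 the 3 and 4 calls became 0 and 5, and between the doses the 1 and 4 calls became 0 and 5. In OCI-Ly1 at 500 nM the 2 and 5 calls became 3 and 2 on log2(TPM + 1), where the median of all genes was 0.12, and 2 and 4 when scaled by library size. There HMOX1 and NFE2L2 were called higher under each of 17 alternatives, from 0.38 to 0.60 and from 0.25 to 0.45.

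Correlations were taken across the 18 libraries, with each line centred on its own mean. Among the 10 genes, the highest were those of TXN, TXNRD1, SRXN1 and PRDX1 with each other. TXNRD1 correlated with PRDX1 at 0.92, with TXN at 0.91 and with SRXN1 at 0.91 (Pearson's r of log2 CPM). GCLM correlated with PRDX1, TXNRD1, TXN and SRXN1 at 0.70, 0.61, 0.58 and 0.54, and with HMOX1 at -0.74. NFE2L2 correlated with HMOX1 at 0.71 and with SRXN1 at -0.86, and PRDX1 with HMOX1 at -0.85. NQO1 correlated with none of the others beyond 0.23 in size. These values describe libraries that share dose groups and are given with no test. Among 14483 genes, those most like NFE2L2 in this measure were TIPARP (0.97) and PPP3CA (0.95), and those most like HMOX1 were NOD1 (0.96) and COL19A1 (0.96). PRDX1 was most like HSPA8 (0.99) and NCAPD2 (0.99), TXNRD1 like GRPEL1 (0.99) and CDCA2 (0.98), TXN like DIS3L (0.98) and NUP133 (0.97), and SRXN1 like PSRC1 (0.97) and PSMA5 (0.96). GCLC was most like ZCCHC6 (0.96) and CCDC141 (0.95), KEAP1 like GNB2 and GPAA1 (0.91 each), GCLM like MRPL44 (0.84) and LIX1L (0.83), and NQO1 like HSCB (0.73) and SYT13 (0.72).

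Genes of related functions were read through 5 lists holding 112 other genes, 111 of them in the tables. Whether these genes respond to NRF2 was not tested. At 500 nM, 26 were higher and 35 lower of 99 tested in OCI-Ly1, and 37 higher and 41 lower of 103 tested in TMD8. Of all genes tested, 27.7% were higher and 25.9% lower in OCI-Ly1, and TMD8 had 29.9% and 30.7%, shares against which the counts of each list below also stand. Their median log2 fold changes were -0.09 and -0.04. On log2(TPM + 1) OCI-Ly1 had 31 higher and 21 lower, and TMD8 had 12 higher and 56 lower, with all genes shifted as above. At 150 nM, 7 were higher and 0 lower in OCI-Ly1 (19 with an unadjusted p under 0.05), and 28 higher and 34 lower in TMD8, where the shares of all genes were 0.748% and 0.141%, and 19.2% and 25%.

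Regulators and partners of NRF2 numbered 15, all tested. At 500 nM, 5 were higher and 6 lower in OCI-Ly1 (median -0.06), and 9 higher and 5 lower in TMD8 (median 0.22). NFE2L1, a relative of NRF2 that binds similar sites, rose in both lines. Its OCI-Ly1 level went from 109 ± 6.51 CPM with DMSO to 368 ± 17.8 CPM (log2 fold change 1.75, SE 0.06, adjusted p 5.1e-14 by edgeR), and its TMD8 level from 129.7 ± 3.53 CPM to 219 ± 6.42 CPM (0.75 ± 0.04 SE, edgeR adjusted p 1.7e-10). BACH1, a repressor that competes with NRF2 for sites such as those of HMOX1, rose in TMD8 from 56.04 ± 5.01 CPM to 133 ± 6.25 CPM (1.25, SE 0.07, adjusted p 3.4e-11 by edgeR). In OCI-Ly1 BACH1 rose by 0.27 (SE 0.06, adjusted p 0.0016 by edgeR), a call lost on the centred TPM scale (0.09, limma adjusted p 0.13). MAFG, a small MAF protein that pairs with NRF2 and with BACH1, rose in TMD8 from 38.2 ± 0.938 CPM to 89.5 ± 2.76 CPM (1.23, SE 0.05, adjusted p 3.9e-12 by edgeR) and was at 0.08 in OCI-Ly1 (edgeR adjusted p 0.36), where it was called on log2(TPM + 1), at 0.21 (limma adjusted p 0.031). All 3 genes differed between the lines, by 1.03 for NFE2L1, -0.96 for BACH1 and -1.12 for MAFG (edgeR adjusted p 2.9e-11, 9.7e-09 and 4.1e-10).

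Genes of glutathione supply and use were split. Of 27 tested in OCI-Ly1, 8 were higher and 9 lower at 500 nM (median -0.10), and of 29 in TMD8, 9 were higher and 10 lower (median -0.0090). SLC7A11 and SLC3A2, which form the exchanger that brings in cystine for glutathione synthesis, rose in both lines. In OCI-Ly1 SLC7A11 went from 53.2 ± 4.28 CPM to 161 ± 1.04 CPM (log2 fold change 1.59, SE 0.07, adjusted p 2.8e-12 by edgeR), and in TMD8 it went from 25.7 ± 1.54 CPM to 68.7 ± 2.62 CPM (1.43, SE 0.06, adjusted p 5.7e-12 by edgeR). SLC3A2 rose by 1.35 in OCI-Ly1 and by 0.53 in TMD8 (edgeR adjusted p 1.3e-12 and 1.5e-08). CHAC1, which breaks glutathione down, rose by 4.62 and by 5.86 (edgeR adjusted p 5.3e-16 and 1.0e-13).

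Among the other thioredoxin and peroxide genes, 5 were higher and 8 lower of 18 tested in each line (medians -0.11 and -0.13). The 3 named are sestrins, stress-induced proteins, of which SESN2 rose by 3.68 in OCI-Ly1 and 3.67 in TMD8 (edgeR adjusted p 5.3e-16 and 3.2e-13). SESN1 rose by 0.92 in OCI-Ly1, from 11.2 ± 0.759 to 21.3 ± 1.19 CPM, and by 2.36 in TMD8, from 4.35 ± 0.321 to 22.5 ± 0.334 CPM (edgeR adjusted p 5.3e-07 and 2.1e-11). SESN3 rose by 1.46 in TMD8 (edgeR adjusted p 3.0e-05), while the OCI-Ly1 fold change was -0.30 (edgeR adjusted p 0.0051), which was not past the threshold on log2(TPM + 1) (-0.13, limma adjusted p 0.26).

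Genes of NADPH supply, which feeds TXNRD1 and NQO1, had more lower than higher calls. In OCI-Ly1, 3 were higher and 6 lower of 13 tested (median -0.17), and in TMD8, 2 were higher and 9 lower of 14 (median -0.36). The named genes belong to folate metabolism. ALDH1L2, a mitochondrial enzyme that yields NADPH, rose by 1.08 in OCI-Ly1, from 3.40 ± 0.318 to 7.18 ± 1.08 CPM, and by 2.84 in TMD8, from 3.94 ± 0.634 to 28.6 ± 0.268 CPM (edgeR adjusted p 5.4e-05 and 1.1e-12). Its cytosolic relative ALDH1L1 fell in TMD8 from 9.21 ± 0.175 to 3.69 ± 0.397 CPM, with a log2 fold change of -1.31 (SE 0.13, adjusted p 1.1e-07 by edgeR), and was under the count filter in OCI-Ly1. MTHFD2 rose by 1.26 in OCI-Ly1, from 276 ± 6.06 to 664 ± 28.9 CPM (edgeR adjusted p 8.5e-13). In TMD8 MTHFD2 was at 0.07 (edgeR adjusted p 0.24), a value that passed the threshold upward when scaled by library size (0.17, edgeR adjusted p 0.0028) and downward on log2(TPM + 1) (-0.30, limma adjusted p 0.034).

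Of the genes of haem, iron and quinone handling and detoxification, 5 were higher and 6 lower of 26 tested in OCI-Ly1 (median -0.02), and 12 higher and 9 lower of 27 in TMD8 (median 0.26). CBR1, a carbonyl and quinone reductase, was lower in both lines, with OCI-Ly1 going from 30.3 ± 1.94 CPM to 21.5 ± 1.77 CPM (log2 fold change -0.49, SE 0.08, adjusted p 6.1e-05 by edgeR) and TMD8 going from 16.4 ± 1.49 CPM to 6.72 ± 0.183 CPM (-1.29, SE 0.12, adjusted p 5.6e-08 by edgeR). ABCC4, an efflux pump, fell in TMD8 from 68.9 ± 0.815 CPM to 30.4 ± 0.249 CPM (-1.18, SE 0.06, adjusted p 8.9e-12 by edgeR) and was at 0.09 in OCI-Ly1 (edgeR adjusted p 0.23), though it passed the threshold there when scaled by library size (0.18, edgeR adjusted p 0.018). HBEGF, a growth factor and not a detoxifying enzyme, was on this list as a reported NRF2 target. In TMD8 it rose from 0.504 ± 0.146 CPM to 2.63 ± 0.426 CPM (2.38, SE 0.29, adjusted p 1.2e-06 by edgeR), and in OCI-Ly1 it fell from 6.15 ± 1.31 CPM to 3.45 ± 0.892 CPM (-0.83, SE 0.19, adjusted p 0.0012 by edgeR). The lines differed for these 3 genes, by 0.83 for CBR1, 1.30 for ABCC4 and -3.19 for HBEGF (edgeR adjusted p 6.1e-05, 4.7e-12 and 9.5e-08).

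**Figure D4:**
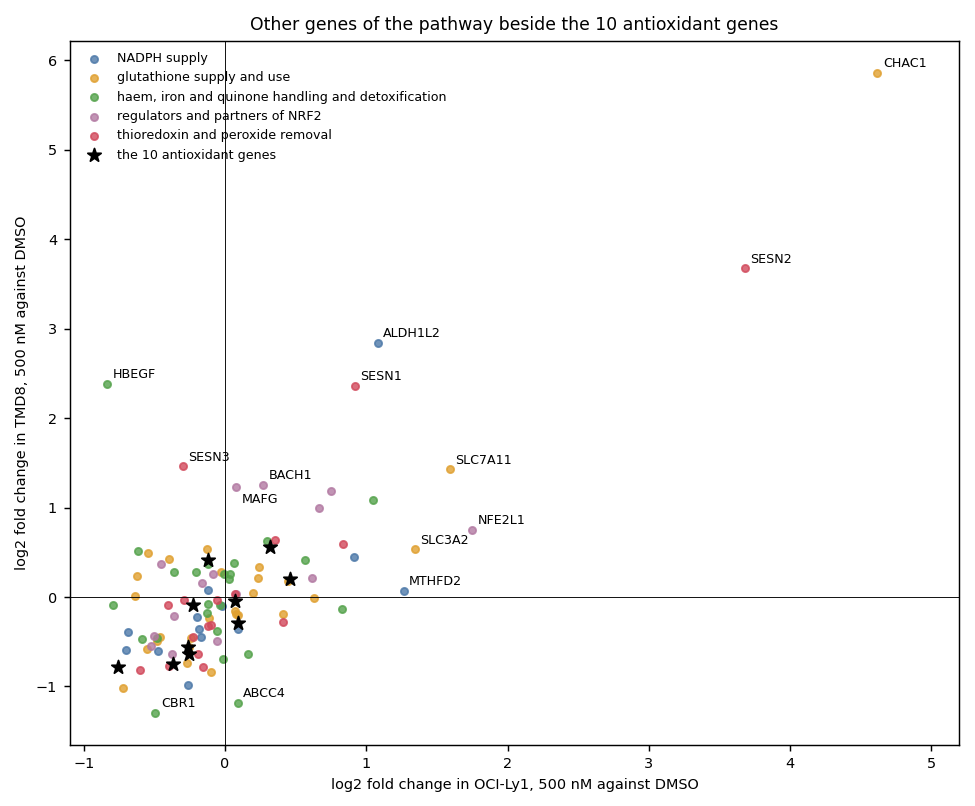
Log2 fold change at 500 nM against DMSO in OCI-Ly1 (horizontal) and TMD8 (vertical) for the 10 antioxidant genes (stars) and the genes of the 5 other lists tested in both lines (circles coloured by list), with the genes chosen by the naming rule labelled. The 10 genes lie within 1 of the origin on both axes, while CHAC1 (4.62 and 5.86) and SESN2 (3.68 and 3.67) lie far above it.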

How the data were processed

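The authors deposited, for each line, a table of estimated counts and a table of TPM per gene symbol. The submitters' processing notes name kallisto 0.46.0, R 4.3.1, DESeq2 1.40.2 and the hg19 build; the index, the annotation and the step from transcripts to genes are not given in the sources used here. Deposited estimated counts, rounded to whole numbers, entered edgeR 4.0.16 (R 4.3.3) with TMM scaling, filterByExpr and the quasi-likelihood F-test. Each line was fitted on its 9 libraries, and comparisons between lines on all 18. P-values were adjusted over all genes tested by Benjamini-Hochberg, and "called" means an adjusted value under 0.05. SEs were derived from the fold change and F, and 95% intervals span 1.96 SE either way. The deposited TPM values were tested with limma 3.58.1 on log2(TPM + 1) among genes of at least 1 TPM in 3 libraries. DESeq2 1.42.0, other scalings and filters, and leaving out each library were the alternatives. Within groups, chi-square per degree of freedom between libraries ran from 1.62 to 10.9, so none were merged. The edgeR fit was run on simulated counts in which a small share of genes changed, up and down in equal number. That run cannot judge the scaling at 500 nM, where most genes were called. Named genes of other lists are the 3 with the largest change in either line at 500 nM among those called, with the higher group averaging 5 CPM or more. For each of the 10 genes, the 2 most correlated genes are named. Members and lists were chosen with earlier results of these data known. Sequences come from RefSeq (GRCh38.p14), while the expression files carry no coordinates.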

Additional observations from a re-analysis of the deposited data

Results flagged for a closer look

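Differences between the lines passed the test of the difference itself, the change in OCI-Ly1 minus the change in TMD8, for 11 of the 20 values examined in the 10 genes, 5 of 10 at 150 nM, where 23.3% of all genes passed, and 6 of 10 at 500 nM, where 46.4% did. At 150 nM these were TXN (0.45), PRDX1 (0.38), TXNRD1 (0.23), HMOX1 (-0.26) and GCLC (-0.34). At 500 nM they were KEAP1 (0.41), TXN (0.41), SRXN1 (0.41), TXNRD1 (0.33), HMOX1 (0.29) and GCLC (-0.50). The HMOX1 difference had opposite signs at the 2 doses, but at 150 nM it kept its call under 7 of 21 alternatives and lost it when any 1 of 9 of the 12 libraries compared was left out. Line and medium cannot be told apart, and no test for outlying libraries was run in groups of 3.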

How the results depend on the processing

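Calls depended mainly on the scaling. On log2(TPM + 1), log2(TPM + 0.1) and log2(TPM + 1) without a filter, members lower in OCI-Ly1 at 500 nM fell from 5 to 2, and members higher in TMD8 fell from 3 to 0 at 500 nM, from 3 to 0 at 150 nM and from 1 to 0 between the doses. Genes of the 5 other lists called lower in OCI-Ly1 at 500 nM went from 35 to 21, 21 and 23, and those higher in TMD8 from 37 to 12, 12 and 16. Line differences called higher at 500 nM went from 5 to 8 on the filtered TPM scales and to 0 with upper quartile scaling, and those called lower from 1 to 0 on the 3 TPM scales and to 3 with upper quartile scaling. At 150 nM those called lower went from 2 to 0 on the 3 TPM scales, and to 1 with DESeq2 or without a low-count filter.

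Directions reversed as follows. On log2(TPM + 0.1), log2(TPM + 1) and its unfiltered form, HMOX1 in TMD8 at 500 nM was -0.17, -0.16 and -0.16, MTHFD2 in TMD8 -0.31, -0.30 and -0.30, and GCLC in OCI-Ly1 0.0200, 0.0193 and 0.0193. On the same scales the line difference at 500 nM was 0.36, 0.27 and 0.27 for GCLM, 0.28, 0.29 and 0.29 for NFE2L2, 0.40, 0.39 and 0.39 for TKT and 1.43, 0.90 and 0.90 for ALDH1L1, and 1.18 for CHAC1 on both log2(TPM + 1) forms. On the centred scale it was 0.42 for ALDH1L1 and 0.70 for CHAC1, and the changes of NQO1 and ABCC4 in OCI-Ly1 were -0.0104 and -0.0277. NQO1 in TMD8 was 0.0475 with library size alone, 0.0287 centred, 0.0821 with upper quartile scaling, 0.0070 without the third DMSO library and 0.0042 without the third 500 nM library, within -0.11 to 0.0070 over all single libraries left out. Upper quartile scaling gave 0.0331 for GCLM in TMD8 and line differences of -0.0460 for NQO1, -0.15 for PRDX1, -0.16 for SESN2 and -0.0392 for TALDO1. Without 1 library, the SESN2 difference ran from -0.0384 to 0.13 (reversed also at -0.01, -0.0049 and -0.0093), and that of ALDH1L1, under the count filter in OCI-Ly1, from -1.71 to 1.35. The cause of these reversals was not tested beyond the shift of the median of all genes.

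Leaving out single libraries gave 4 to 6 members lower in OCI-Ly1 at 500 nM, 2 to 3 higher and 4 to 5 lower in TMD8 at 150 nM, and 0 to 1 higher and 2 to 5 lower between the TMD8 doses. Line differences ranged over 2 to 4 higher and 1 to 3 lower at 150 nM, and 1 to 2 lower at 500 nM, and members higher in OCI-Ly1 with DMSO over 8 to 9. Genes of the 5 other lists at 500 nM ranged over 23 to 24 higher and 30 to 38 lower in OCI-Ly1, and 31 to 35 and 39 to 42 in TMD8. With all libraries the counts were 26 and 35, and 37 and 41, so the higher counts lay above both ranges. With the replicate block the numbers of members called equalled those without it in every comparison, within the lines 0 higher and 0 lower, 2 and 5, and 2 and 4 in OCI-Ly1, 3 and 4, 3 and 5, and 1 and 4 in TMD8. Same-numbered libraries had correlations of -0.05 to 0.15 (OCI-Ly1) and -0.05 to 0.14 (TMD8). Differently numbered ones had -0.17 to 0.04 and -0.19 to 0.10. The highest value in each line was thus a same-numbered pair. In each line, 4 of 9 libraries correlated best with one of their own number. Numbers were not taken as pairs, and these values do not settle whether they are. Depth, at least 9550016 counts, gave every member at least 98 counts in each library.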

Other observations

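Some genes of the other lists, chosen after their values were seen, went opposite ways in the lines at 500 nM. FTH1, the ferritin heavy chain that stores iron, rose from 129 ± 6.45 to 228 ± 16.2 CPM (mean ± SD, n = 3) in OCI-Ly1, with a log2 fold change of 0.83 (SE 0.06, edgeR adjusted p 3.4e-09). In TMD8 it changed by -0.13 (SE 0.05, edgeR adjusted p 0.024), a call lost under 4 of 17 alternatives. FTL, the light chain, changed by 0.16 in OCI-Ly1 (edgeR adjusted p 0.020, lost under 4 of 17 alternatives) and by -0.64 in TMD8 (edgeR adjusted p 2.0e-08), where it went from 2316 ± 162 to 1488 ± 34.5 CPM. PRDX5, another peroxiredoxin, rose by 0.41 in OCI-Ly1 (edgeR adjusted p 5.5e-06) and changed by -0.28 in TMD8 (edgeR adjusted p 0.0010). The differences between the lines were 0.99, 0.83 and 0.72 (edgeR adjusted p 2.2e-10, 2.0e-08 and 1.0e-07), and each was past the threshold in the same direction under all 21 alternatives run. Ferritin genes have many pseudogene copies, so their values are uncertain.

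TKT and TALDO1, enzymes of the pentose phosphate pathway chosen after their values were seen, were lower in both lines. TKT changed by -0.70 in OCI-Ly1 and -0.59 in TMD8, and TALDO1 by -0.48 and -0.60 (edgeR adjusted p from 3.9e-09 to 3.0e-07), each past the threshold in the same direction under all 17 alternatives run per line.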
